A study of Mus musculus with 24 samples.

Results

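Spp1, Mgp, Gas6, Ambp, Enpp1 and Alpl encode secreted or membrane-bound proteins and are grouped here as modulators of mineral and crystals. Their transcript levels are described in kidneys from a mouse study of calcium oxalate nephrocalcinosis, saline-treated kidneys included. The genes were taken by symbol from the deposited expression table, which gave 6 of 28450 features. All 6 passed the filter on low values, among 13020 features tested. The kidneys came from C57BL/6 mice injected into the peritoneum with 200 µl on days 1 to 7 and were collected after 7 days. KO-Gly kidneys were from Nlrp3 knockout mice (spelled NLPR3-/- in the labels) given glyoxylate (Gly), a precursor of oxalate, at 75 mg/kg per day. WT-Gly kidneys were from wild-type mice given the same dose, KO-Ctrl kidneys from knockout mice given saline, and WT-Ctrl kidneys from wild-type mice given saline. Each group had 6 libraries of whole-kidney RNA, 24 in all. The labels state neither age, sex nor the kind of Nlrp3 deletion, nor whether a library pools animals. Whole-kidney RNA cannot tell fewer cells of a type from less RNA per cell.

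Calcium oxalate crystals form in the tubular fluid when urine is supersaturated, and proteins made by the kidney or filtered from blood bind to the crystal surface and change how fast crystals grow, aggregate and attach. Spp1 encodes osteopontin, an acidic phosphoprotein of urine that binds crystals and slows their growth, and that is also a cytokine for leukocytes. Mgp encodes matrix Gla protein, which needs vitamin K for its calcium-binding residues, inhibits calcification of vessels and binds bone morphogenetic proteins. Gas6 encodes another vitamin K-dependent protein, the ligand of the receptor kinases Tyro3, Axl and Mertk. Enpp1 makes pyrophosphate, an inhibitor of mineral growth, from extracellular ATP, and Alpl encodes the alkaline phosphatase that hydrolyses pyrophosphate. Ambp encodes, mainly in liver, a precursor that is cut into alpha-1-microglobulin and bikunin, the light chain of the inter-alpha-inhibitor proteins.

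The upstream sequences of Spp1, Gas6 and Alpl are shown because these 3 genes, together with Mgp, were higher in WT-Gly than in WT-Ctrl kidneys. Each is the 250 bases before an annotated start in RefSeq (GRCm38.p6), 5′ to 3′ on the strand of the gene, and 5 of the 6 genes had such a window. Spp1 lies on the plus strand at chr5:104434861-104435110, Gas6 on the minus strand at chr8:13494536-13494785 and the upstream start of Alpl on the minus strand at chr4:137796385-137796634. Capitals mark matches, on either strand, to the letters searched.
Spp1: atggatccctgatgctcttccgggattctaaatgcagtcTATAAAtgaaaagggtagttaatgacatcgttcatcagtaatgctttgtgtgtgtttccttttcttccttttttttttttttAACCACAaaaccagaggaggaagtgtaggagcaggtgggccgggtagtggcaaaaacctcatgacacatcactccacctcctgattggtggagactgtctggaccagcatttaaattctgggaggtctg
Gas6: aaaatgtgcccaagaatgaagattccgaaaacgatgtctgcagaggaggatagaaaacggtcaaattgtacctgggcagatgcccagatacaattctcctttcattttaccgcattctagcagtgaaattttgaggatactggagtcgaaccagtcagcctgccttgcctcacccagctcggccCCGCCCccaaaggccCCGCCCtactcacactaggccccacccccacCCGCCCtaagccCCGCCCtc
Alpl: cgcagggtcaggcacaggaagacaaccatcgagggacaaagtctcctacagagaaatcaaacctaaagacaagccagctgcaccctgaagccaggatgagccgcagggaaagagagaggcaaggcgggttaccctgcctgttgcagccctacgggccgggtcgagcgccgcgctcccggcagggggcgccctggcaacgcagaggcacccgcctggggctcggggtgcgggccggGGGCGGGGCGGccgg
The letters searched were TGANTCA for AP-1, AACCACA for Runx (both strands), TATAAA for a TATA box and GGGCGG for a GC box. In the Spp1 window shown, AACCACA began 129 bases and TATAAA 211 bases before the start. AACCACA was in 4.4% and TATAAA in 12.4% of all 32851 windows. The Gas6 window held 4 GC boxes on the reverse strand, and the Alpl window shown held 2 overlapping GC boxes, at 15 and 10 bases before the start. At least 1 GC box was in 32.7% of all windows. Spp1 and Alpl each had a window at another start, not shown. That of Spp1, at chr5:104435942-104436191, held none of the 4 motifs, and G and C made up 35.6% of it. That of Alpl, at chr4:137766476-137766725, held 1 TATA box and no GC box, with 56% G and C. The Enpp1 window held 1 GC box, that of Ambp held none of the 4 motifs, and no window of these genes held the AP-1 letters, which were in 6.75% of windows. In the windows shown, the bases G and C made up 43.6% for Spp1, 54.8% for Gas6 and 68.4% for Alpl, beside a median of 52.4% over all windows. A match is a description of these letters and not of a bound site.

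Levels are in FPKM as deposited, which counts mapped fragments relative to transcript length and library total, and the sequencing depth behind them is unknown. The FPKM of a library summed to between 439749 and 539018. Differences are on the log2(FPKM + 1) scale, from 1 limma fit to all 24 libraries, and a gene was called where its Benjamini-Hochberg adjusted p over the 13020 tested features was under 0.05, two-sided. A difference on this scale understates the change of a gene with a low level. Nlrp3 lay at 0.119 to 0.144 FPKM in KO-Gly, 0.361 to 0.896 in WT-Gly, 0 to 0.182 in KO-Ctrl and 0.0397 to 0.0886 in WT-Ctrl kidneys. Nlrp3 was therefore lower in KO-Gly than in WT-Gly kidneys without overlap, while the saline groups overlapped at levels near 0. KO-Ctrl replicates 1, 2, 3 and 6 lay above every WT-Ctrl library, and KO-Ctrl replicate 4 was at 0. A lower level in knockout was thus not seen between the saline groups as a whole. In 5 of the 6 KO-Ctrl libraries, replicates 1, 2, 3, 5 and 6, no Y-linked gene exceeded 0.0503 FPKM, and in each of the other 19 libraries the highest one reached at least 11.5 FPKM. Differences from KO-Ctrl kidneys are therefore given with and without those 5 libraries. Without them replicate 4 is the one KO-Ctrl library left and is taken to vary like the other groups. Genotype and the difference in Y-linked transcripts cannot be told apart in the 5.

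**Figure D1:**
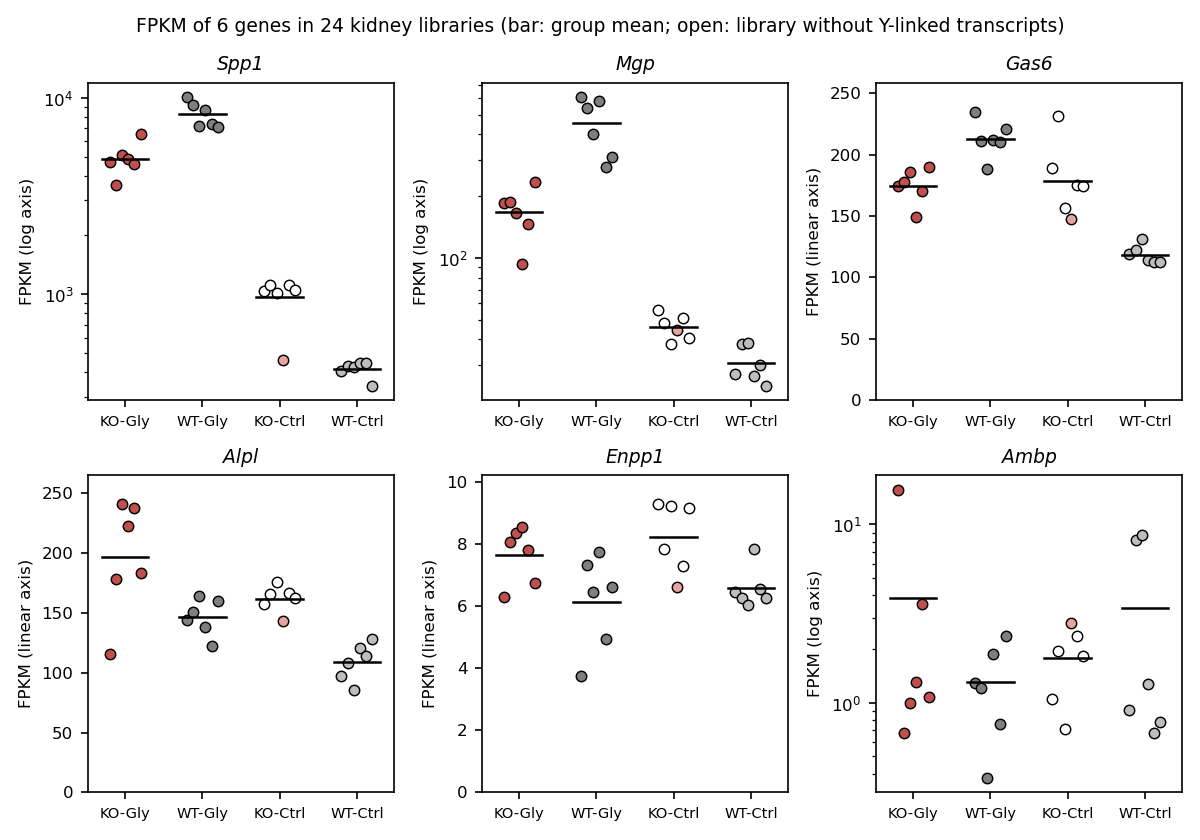
FPKM of each of the 6 genes (vertical axes, log for Spp1, Mgp and Ambp and linear from 0 for Gas6, Alpl and Enpp1) in the libraries of the 4 groups (horizontal axes). Each point is 1 library, bars are group means, and open points are the 5 KO-Ctrl libraries without Y-linked transcripts. Spp1 does not overlap between groups, though KO-Ctrl replicate 4 at 461 FPKM lies next to the WT-Ctrl range, which ends at 447 FPKM, while Ambp is spread out by 3 libraries above 8 FPKM.

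Glyoxylate was followed by a large rise of osteopontin and matrix Gla protein transcripts in wild-type kidneys, by smaller rises of Gas6 and Alpl, and by no called change of Enpp1 or Ambp. Thus 4 of the 6 genes were called higher and none lower, where 50.2% of all tested features were called higher and 13.3% lower. All 4 rose by more than the median of all tested features, which itself lay 0.26 log2 units above 0. The lead of Alpl over that median was 0.17 log2 units.

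Spp1 (ENSMUSG00000029304), the osteopontin gene, lay between 7079 and 10035 FPKM with a median of 8019 in WT-Gly kidneys, against 342 to 447 with a median of 431 in WT-Ctrl kidneys. The groups were far apart, with no library of either within the range of the other. The mean was 8253 ± 1211 FPKM in WT-Gly and 417 ± 39.4 FPKM in WT-Ctrl kidneys (SD, n = 6 each), a ratio of 19.8. The log2 difference was 4.30 ± 0.17 (SE, adjusted p = 3.23e-15). In WT-Gly kidneys Spp1 was the 7th highest of all features by its mean and took 1.52% to 2.06% of the FPKM sum of a library. In WT-Ctrl kidneys it was the 98th highest and took 0.0707% to 0.0942%.

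Mgp (ENSMUSG00000030218) on chromosome 6, the matrix Gla protein gene, lay between 277 and 606 FPKM with a median of 472 in WT-Gly kidneys, against 23.8 to 38.6 with a median of 28.6 in WT-Ctrl kidneys. These groups did not overlap either. The mean was 453 ± 142 FPKM in WT-Gly and 30.7 ± 6.20 FPKM in WT-Ctrl kidneys (SD, n = 6 each), a ratio of 14.8. On the log2 scale the difference was 3.80 ± 0.20 (SE, adjusted p = 1.35e-13). Mgp in WT-Gly kidneys was uneven, with replicates 5 and 6 at 277 and 311 FPKM and replicates 1, 2 and 4 at 540.2 to 606 FPKM.

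Gas6 (ENSMUSG00000031451), the ligand of the Tyro3, Axl and Mertk receptors, lay between 188 and 235 FPKM with a median of 212 in WT-Gly kidneys, against 112 to 131 with a median of 116 in WT-Ctrl kidneys. Its groups were also fully separate, at a ratio of means of 1.80. Gas6 differed by 0.84 ± 0.09 on the log2 scale (SE, adjusted p = 1.34e-08). Of Spp1, Mgp and Gas6, each was higher in 6 of 6 WT-Gly libraries than in every WT-Ctrl library, as were 31.3% of the tested features. Alpl (ENSMUSG00000028766), the alkaline phosphatase that breaks down pyrophosphate, lay between 123 and 164 FPKM with a median of 147 in WT-Gly kidneys, against 85.8 to 128 with a median of 111 in WT-Ctrl kidneys. Its ranges met at the edge, with 5 of 6 WT-Gly libraries above every WT-Ctrl library. The log2 difference of Alpl was 0.43 ± 0.13 (SE, adjusted p = 0.0076), and after median-ratio scaling of the libraries it was 0.11 (adjusted p = 0.447).

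Enpp1 (ENSMUSG00000037370), the source of pyrophosphate, lay between 3.75 and 7.74 FPKM with a median of 6.54 in WT-Gly kidneys, against 6.05 to 7.84 with a median of 6.37 in WT-Ctrl kidneys. The groups overlapped, and 2 WT-Gly libraries, replicates 1 and 5, lay below every WT-Ctrl library. The log2 difference was -0.11, with a 95% interval of -0.36 to 0.14 (adjusted p = 0.43). After median-ratio scaling it was -0.39 (adjusted p = 0.00207) and after quantile normalization -0.41 (adjusted p = 0.000406), so the call of Enpp1 as lower depends on the scaling. Ambp (ENSMUSG00000028356) lay between 0.378 and 2.36 FPKM with a median of 1.25 in WT-Gly kidneys, against 0.68 to 8.73 with a median of 1.09 in WT-Ctrl kidneys. Its groups overlapped, and the log2 difference of -0.55 had a 95% interval of -1.55 to 0.46 (adjusted p = 0.34).

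**Figure D2:**
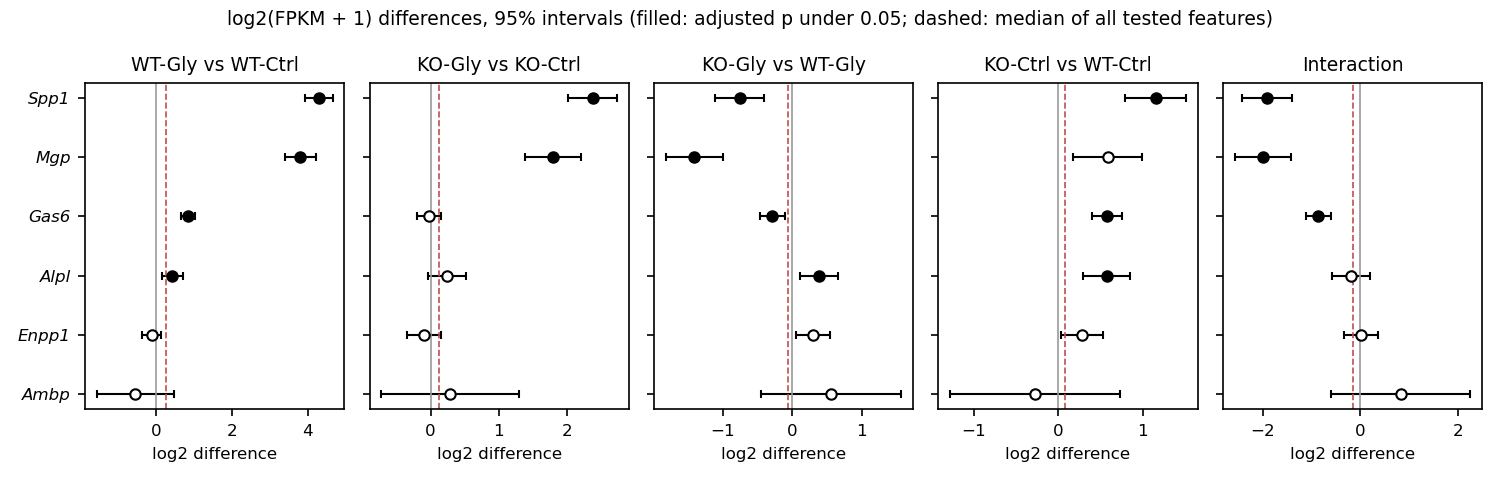
Differences of the 6 genes (rows) in 5 comparisons (panels), in log2(FPKM + 1) units with 95% intervals from limma. Filled points have an adjusted p under 0.05, and the dashed line is the median of all tested features. Spp1 and Mgp lie right of 0 in both comparisons of Gly with saline and left of 0 in KO-Gly against WT-Gly and in the interaction.

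Under glyoxylate, knockout kidneys had less Spp1, Mgp and Gas6 transcript than wild-type kidneys and more Alpl transcript. Thus 3 of the 6 genes were called lower and 1 higher, where 21.4% of tested features were called lower and 8.37% higher. Spp1 lay between 3590.3 and 6504 FPKM with a median of 4799 in KO-Gly kidneys, against the 7079 to 10035 FPKM of WT-Gly kidneys. All 6 KO-Gly libraries were below all 6 WT-Gly libraries. The mean of 4902 ± 943 FPKM in KO-Gly kidneys was 0.594 times that of WT-Gly kidneys (SD, n = 6). Its log2 difference was -0.76 ± 0.17 (SE, adjusted p = 0.0021).

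Mgp lay between 93.8 and 234 FPKM with a median of 175 in KO-Gly kidneys, against the 277 to 606 FPKM of WT-Gly kidneys. Its groups did not overlap, as was so, with KO-Gly lower, for 6.3% of tested features. The mean of 168 ± 46.8 FPKM in KO-Gly kidneys was 0.372 times that of WT-Gly kidneys (SD, n = 6). The log2 difference of -1.41 ± 0.20 (SE, adjusted p = 2.00e-05) was further from 0 than that of Spp1. Gas6 lay between 149.5 and 189.7 FPKM with a median of 176 in KO-Gly kidneys, against 188 to 235 in WT-Gly kidneys. In 5 of 6 KO-Gly libraries it was below every WT-Gly library, and the log2 difference was -0.29 ± 0.09 (SE, adjusted p = 0.016). That call was lost after median-ratio scaling (-0.22, adjusted p = 0.087) and after quantile normalization (-0.23, adjusted p = 0.085).

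Alpl lay between 116 and 241 FPKM with a median of 203 in KO-Gly kidneys, against 123 to 164 with a median of 147 in WT-Gly kidneys. KO-Gly replicate 1 was the lowest of all 12 libraries and the other 5 KO-Gly libraries were above every WT-Gly library. The mean was 197 ± 47.8 FPKM in KO-Gly and 147 ± 15.2 FPKM in WT-Gly kidneys (SD, n = 6 each), with a log2 difference of 0.39 ± 0.13 (SE, adjusted p = 0.032). This call was lost when KO-Gly replicate 3, 4 or 5 or WT-Gly replicate 4 or 5 was left out, with adjusted p-values of 0.0876, 0.0748, 0.0882, 0.0555 and 0.0673. Enpp1 lay between 6.31 and 8.55 FPKM with a median of 7.94 in KO-Gly kidneys, against 3.75 to 7.74 in WT-Gly kidneys. The groups overlapped, and the log2 difference of 0.30 had a 95% interval of 0.05 to 0.55 (adjusted p = 0.064). It was 0.35 after median-ratio scaling (adjusted p = 0.0109) and 0.37 after quantile normalization (adjusted p = 0.00338). Ambp differed by 0.56 log2 units, with a 95% interval of -0.45 to 1.57 (adjusted p = 0.41).

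Within knockout mice, Spp1 and Mgp rose with glyoxylate and the other 4 genes were not called, where 23.7% of tested features were called higher and 5.72% lower. Spp1 was 5.09 times as high on average in KO-Gly as in KO-Ctrl kidneys, which held 461 to 1118 FPKM with a median of 1039. Mgp was 3.64 times as high in KO-Gly as in KO-Ctrl kidneys, which held 38.1 to 55.4 FPKM with a median of 46.2. Neither gene overlapped between these groups, as was so, with KO-Gly higher, for 15.5% of tested features. On the log2 scale this was 2.38 ± 0.17 for Spp1 (SE, adjusted p = 9.60e-10) and 1.80 ± 0.20 for Mgp (SE, adjusted p = 3.55e-07). Against KO-Ctrl replicate 4 alone, the KO-Ctrl library with Y-linked transcripts, the log2 difference was 3.39 for Spp1 (adjusted p = 3.28e-07) and 1.85 for Mgp (adjusted p = 0.0105).

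Gas6 was not called between these groups. It lay between 149.5 and 189.7 FPKM in KO-Gly kidneys and between 147 and 231 FPKM with a median of 175 in KO-Ctrl kidneys. The log2 difference was -0.02, with a 95% interval of -0.21 to 0.16 (adjusted p = 0.86), and without the 5 KO-Ctrl libraries lacking Y-linked transcripts it was 0.24 (adjusted p = 0.32). Alpl differed by 0.24 (adjusted p = 0.19) on the log2 scale, Enpp1 by -0.09 (adjusted p = 0.60) and Ambp by 0.28 (adjusted p = 0.71). Without the 5 KO-Ctrl libraries these differences were 0.42 for Alpl (adjusted p = 0.388), 0.17 for Enpp1 (adjusted p = 0.682) and -0.21 for Ambp (adjusted p = 0.916). Without KO-Gly replicate 1, Alpl differed by 0.38 (adjusted p = 0.00808), and after quantile normalization Enpp1 was called lower (-0.24, adjusted p = 0.0446).

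The responses of both genotypes were compared directly by the interaction, the log2 difference between Gly and saline in knockout minus that in wild type. It was called below 0 for Spp1, Mgp and Gas6, 3 of the 6 genes, where 20.3% of tested features were called below 0 and 6.28% above. The value was -1.92 ± 0.25 for Spp1 (SE, adjusted p = 1.99e-05), -2.0 ± 0.28 for Mgp (SE, adjusted p = 4.36e-05) and -0.86 ± 0.12 for Gas6 (SE, adjusted p = 5.58e-05). The median of all tested features was -0.16. Without the 5 KO-Ctrl libraries lacking Y-linked transcripts no member was called, at -0.91 for Spp1 (adjusted p = 0.202), -1.95 for Mgp (adjusted p = 0.11) and -0.60 for Gas6 (adjusted p = 0.135), and 10 features in all were called. Spp1, Mgp and Gas6 were the 3 members with an unadjusted p under 0.05 there. The value for Mgp moved by less than its standard error and those for Spp1 and Gas6 by more than theirs. Alpl (-0.19, adjusted p = 0.50), Enpp1 (0.02, adjusted p = 0.96) and Ambp (0.83, adjusted p = 0.40) were not called with all libraries, nor without the 5, at -0.012, 0.29 and 0.33.

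Saline-treated knockout kidneys had more Spp1, Gas6 and Alpl transcript than saline-treated wild-type kidneys, 3 of the 6 genes, where 6.92% of tested features were called higher and 3.67% lower. Spp1 averaged 964 ± 249.6 FPKM in KO-Ctrl and 417 ± 39.4 FPKM in WT-Ctrl kidneys (SD, n = 6 each). The mean was set by the 5 KO-Ctrl libraries that lack Y-linked transcripts, at 1014 to 1118 FPKM, while KO-Ctrl replicate 4 had 461 FPKM, 1.11 times the WT-Ctrl mean. The log2 difference was 1.15 ± 0.17 (SE, adjusted p = 0.00015) with all libraries and 0.15 (adjusted p = 1) with replicate 4 alone. Gas6 averaged 179 ± 29.7 FPKM in KO-Ctrl and 119 ± 7.45 FPKM in WT-Ctrl kidneys, with a log2 difference of 0.58 ± 0.09 (SE, adjusted p = 0.00017). Alpl averaged 162 ± 11.1 FPKM in KO-Ctrl and 109 ± 15.5 FPKM in WT-Ctrl kidneys, with a log2 difference of 0.57 ± 0.13 (SE, adjusted p = 0.0069).

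KO-Ctrl replicate 4 was itself above all WT-Ctrl libraries for Spp1, Gas6 and Alpl. It held 461 FPKM of Spp1, where the highest WT-Ctrl library had 447. It held 147 FPKM of Gas6, where the highest WT-Ctrl library had 131, and 143 FPKM of Alpl, where the highest WT-Ctrl library had 128. With replicate 4 alone neither was called, at log2 differences of 0.31 and 0.40 (adjusted p = 1 each). In that fit limma called 0 of the tested features, with 101 at an unadjusted p under 0.05, Gas6 among them. Spp1, Gas6 and Alpl did not overlap between all KO-Ctrl and WT-Ctrl libraries, as was so, with KO-Ctrl higher, for 3.94% of tested features. Mgp averaged 46.2 ± 6.43 FPKM in KO-Ctrl and 30.7 ± 6.20 FPKM in WT-Ctrl kidneys, with a log2 difference of 0.59 ± 0.20 (SE, adjusted p = 0.059). In 5 of 6 KO-Ctrl libraries Mgp was above every WT-Ctrl library. Enpp1 differed by 0.28 (adjusted p = 0.14) and Ambp by -0.27 (adjusted p = 0.78). With replicate 4 alone Mgp differed by 0.54, Enpp1 by 0.013 and Ambp by 0.23 (adjusted p = 1 each).

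The order of the group means was the same for Spp1 and Mgp, with WT-Gly highest, then KO-Gly, KO-Ctrl and WT-Ctrl. Each neighbour in that order differed for Spp1, and KO-Ctrl and WT-Ctrl did not differ beyond the threshold for Mgp. For Gas6, the mean was highest in WT-Gly and lowest in WT-Ctrl, and KO-Ctrl and KO-Gly between them did not differ beyond their spread. WT-Gly and KO-Ctrl were not compared for Gas6. Its call between KO-Gly and WT-Gly was lost after median-ratio scaling and after quantile normalization. For Alpl, the mean was highest in KO-Gly, followed by KO-Ctrl, WT-Gly and WT-Ctrl. KO-Gly and KO-Ctrl did not differ beyond the threshold for Alpl, and KO-Ctrl and WT-Gly were not compared. The call of Alpl between WT-Gly and WT-Ctrl was lost after median-ratio scaling. Glyoxylate-treated knockout kidneys thus stayed above saline-treated wild-type kidneys for 4 genes, where 38.9% of tested features were called higher and 6.72% lower. That log2 difference was 3.54 ± 0.17 for Spp1 (SE, adjusted p = 1.29e-12), 2.39 ± 0.20 for Mgp (SE, adjusted p = 2.62e-09), 0.81 ± 0.13 for Alpl (SE, adjusted p = 3.57e-05) and 0.55 ± 0.09 for Gas6 (SE, adjusted p = 2.32e-05). These comparisons share their libraries with those above and are no separate evidence.

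The marker genes of several cell types moved along with these genes, and their part in the results was not tested. The summed FPKM of 8 macrophage markers was 130 to 394 in KO-Gly, 240 to 703 in WT-Gly, 35.0 to 67.8 in KO-Ctrl and 32.4 to 54.2 in WT-Ctrl kidneys. All 8 were called higher in WT-Gly than in WT-Ctrl kidneys, where 50.2% of all features were. All 8 were called lower in KO-Gly than in WT-Gly kidneys, where 21.4% of all features were. The summed FPKM of 6 fibroblast markers was 74.2 to 224 in KO-Gly and 102 to 277 in WT-Gly kidneys. It was 15.3 to 21.4 in KO-Ctrl and 11.3 to 19.2 in WT-Ctrl kidneys. Of the 6, 4 were called lower in KO-Gly than in WT-Gly kidneys, where 21.4% of all features were. After median-ratio scaling 4 were called lower, where 15.3% of all features were, and after quantile normalization 3, where 17.2% were. KO-Gly replicate 6 had the highest Spp1 and Mgp of its group and also its highest macrophage and fibroblast sums. The other KO-Gly libraries did not keep one order. Replicate 4, with the lowest Mgp, had the second highest macrophage sum (284 FPKM) and the lowest fibroblast sum, and replicate 2, with the lowest Spp1, had the second highest fibroblast sum (168 FPKM) and the lowest macrophage sum. The summed FPKM of 5 vascular smooth muscle markers was 51.5 to 113 in KO-Gly, 99.4 to 137 in WT-Gly, 36.8 to 48.0 in KO-Ctrl and 27.9 to 37.4 in WT-Ctrl kidneys. That of 6 endothelial markers was 92.0 to 152 in KO-Gly, 76.8 to 119 in WT-Gly, 88.7 to 163 in KO-Ctrl and 67.7 to 82.7 in WT-Ctrl kidneys. The endothelial sum was thus higher in every KO-Ctrl than in every WT-Ctrl library, beside the higher Gas6 there, and KO-Ctrl replicate 2 had the highest value of both. Of all features 6.92% were called higher in that comparison. There 3 of the 6 endothelial markers were, with a median of 0.50, and 4 of 5 podocyte markers, with a median of 0.59. Without the 5 KO-Ctrl libraries, where limma called 0 features, the medians were 0.088 and 0.13. Markers of the proximal tubule summed to 1770 to 2445 FPKM in KO-Gly, 974 to 1446 in WT-Gly, 1753 to 2649 in KO-Ctrl and 1947 to 2658 in WT-Ctrl kidneys. These transcripts were present in every group, but lower in WT-Gly kidneys, without overlap with any other group. In WT-Gly against WT-Ctrl kidneys 5 of the 8 were called lower (median -0.92), where 13.3% of all features were. In KO-Gly against WT-Gly kidneys 6 of the 8 were called higher (median 0.77), where 8.37% of all features were. Markers of the loop and distal tubule summed to 1968 to 2553 FPKM in KO-Gly, 1542 to 2459.8 in WT-Gly, 1841 to 2744 in KO-Ctrl and 1819 to 2419.8 in WT-Ctrl kidneys. The ranges of collecting duct markers (203 to 537 in KO-Gly, 181 to 357 in WT-Gly, 251 to 339 in KO-Ctrl and 197 to 266 in WT-Ctrl kidneys) and of podocyte markers (48.2 to 79.7, 34.0 to 58.8, 50.7 to 111 and 38.0 to 55.7 in the same groups) overlapped between KO-Gly and WT-Gly kidneys. Markers of the adrenal gland summed to at most 1.60 FPKM in any library.

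Ambp differed from the other genes in that single libraries set its group means. It was at 15.7 FPKM in KO-Gly replicate 1 and at 0.677 to 3.57 FPKM in the other 5 KO-Gly libraries, with a group median of 1.2. In WT-Ctrl kidneys it was at 8.14 and 8.73 FPKM in replicates 2 and 3 and at 0.68 to 1.27 FPKM in the other 4. KO-Ctrl kidneys held 0.71 to 2.79 FPKM with a median of 1.89. Of 6 liver markers, 2 had their 3 highest values in the 3 libraries with the most Ambp. One was Alb, the serum albumin gene of hepatocytes, at 223 FPKM in KO-Gly replicate 1 and at 94.9 and 107.6 FPKM in WT-Ctrl replicates 2 and 3, and Alb was at 1.1 to 58.3 FPKM in the other 21 libraries. The other was Apoa2, a liver-made apolipoprotein, at 36.9 FPKM in KO-Gly replicate 1 and at 29.9 and 39.2 FPKM in WT-Ctrl replicates 2 and 3. The other 4 markers did not rank these libraries so. Fga was at 50.9 FPKM in KO-Gly replicate 1 and 14.6 and 20.4 FPKM in WT-Ctrl replicates 2 and 3, while KO-Gly replicates 3 and 4 held 109 and 165 FPKM. Those 2 KO-Gly libraries also had the most Serpina1c, at 53.0 and 55.0 FPKM, against 27.0 FPKM in KO-Gly replicate 1. Apob was at 10.6 FPKM in KO-Gly replicate 1 and reached 24.4 FPKM in KO-Ctrl replicate 3, and Ttr was highest in WT-Ctrl replicate 6 at 76.1 FPKM. The summed FPKM of 6 liver markers was 90.0 to 421 in KO-Gly, 66.9 to 126 in WT-Gly, 83.7 to 165 in KO-Ctrl and 87.9 to 274 in WT-Ctrl kidneys, and none of the 6 was at 0 in all libraries of a group. The part of liver transcripts in the level of Ambp was not tested, and no difference of Ambp between groups was called.

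**Figure D3:**
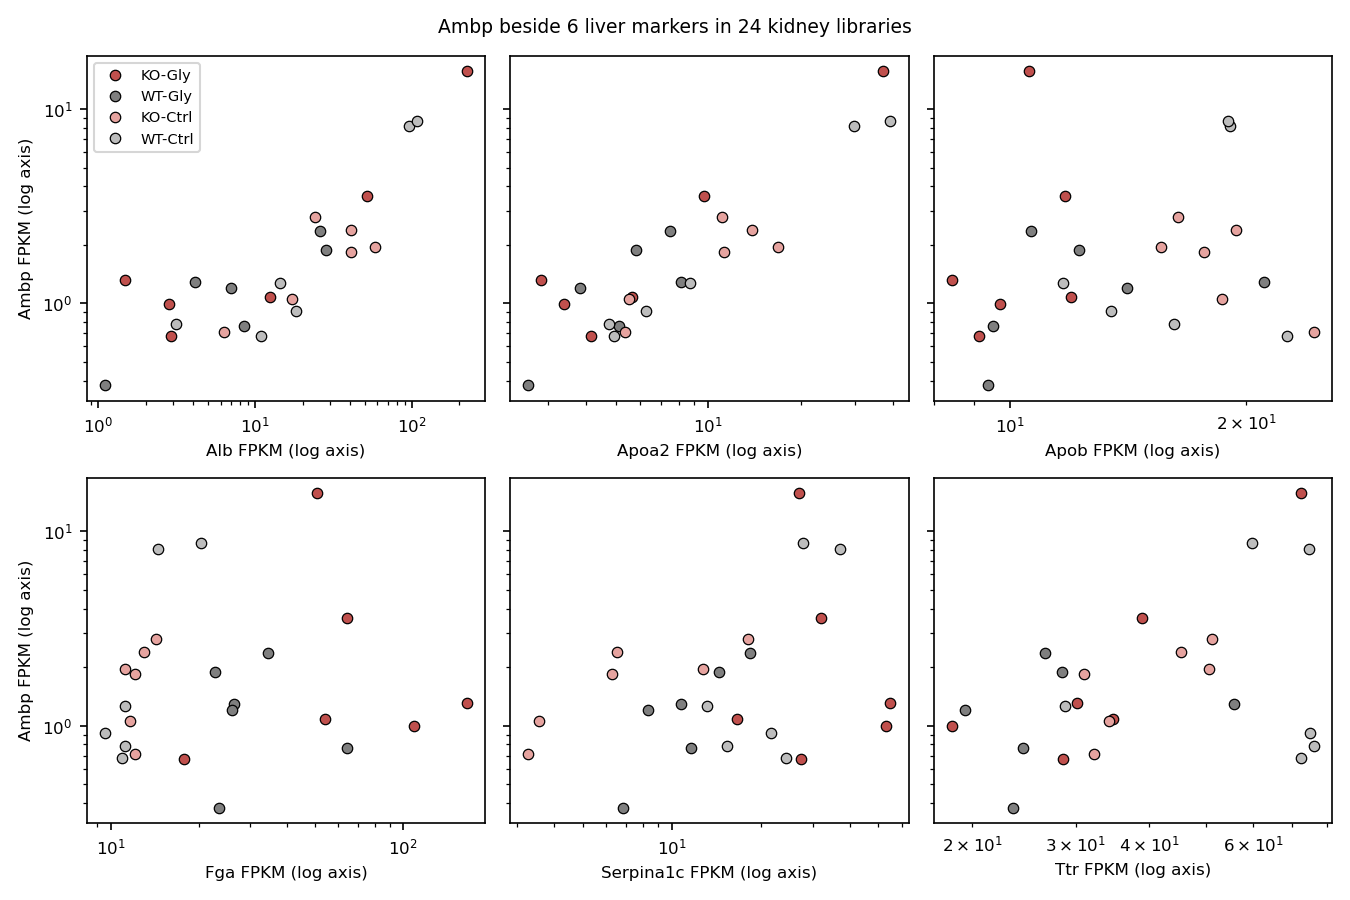
FPKM of Ambp (vertical axes, log) against that of each of 6 liver markers (panels, horizontal axes, log) in the 24 libraries, 1 point each, coloured by group. KO-Gly replicate 1 and WT-Ctrl replicates 2 and 3, the top 3 points of each panel, are the 3 highest for Alb and Apoa2 and not for Apob, Fga, Serpina1c or Ttr.

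The partners of these proteins were taken from lists of receptors and related pathway genes. The receptors of osteopontin were CD44 and integrin subunits, of which 9 of 11 were tested and 8 were called higher in WT-Gly than in WT-Ctrl kidneys, with a median log2 difference of 0.95 beside 0.26 for all tested features, of which 50.2% were called higher. Cd44 rose by 2.84 log2 units (adjusted p = 5.12e-12), the integrin subunit genes Itgb6 by 1.73 (adjusted p = 1.57e-09), Itga9 by 1.40 (adjusted p = 2.42e-09) and Itga5 by 1.25 (adjusted p = 9.83e-09). In KO-Gly against WT-Gly kidneys 4 of the 9 were called lower and none higher, where 21.4% and 8.37% of all features were, with a median of -0.29 beside -0.06 for all. After either rescaling 3 were called lower and 1 higher, and without the 5 KO-Ctrl libraries lacking Y-linked transcripts 2 were called lower. Cd44 was lower by a log2 difference of -0.86 (adjusted p = 0.0012) and Itga5 by -0.42 (adjusted p = 0.017).

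The receptors of Gas6 did not move one way. Axl rose by 1.88 log2 units in WT-Gly against WT-Ctrl kidneys (adjusted p = 1.47e-09) and Tyro3 by 0.60 (adjusted p = 3.37e-05), while Mertk fell by 0.88 (adjusted p = 1.18e-05). Pros1, protein S, a related vitamin K-dependent ligand, rose by 1.5 (adjusted p = 9.36e-10). Of these 4 genes 3 were called higher and 1 lower, where 50.2% and 13.3% of all features were. Between KO-Gly and WT-Gly kidneys Mertk was higher by 0.63 (adjusted p = 0.0023), and Axl was at -0.43 (adjusted p = 0.060). Mertk was the only one of these 4 genes called there, where 8.37% of all features were called higher and 21.4% lower. Of 4 genes of the vitamin K cycle, which both Gas6 and matrix Gla protein depend on, 1 was called higher and none lower in WT-Gly against WT-Ctrl kidneys. Of all features 50.2% were called higher and 13.3% lower there. After either rescaling none of the 4 was called higher and 1 lower. The one called higher was Vkorc1l1, an epoxide reductase, which was at 0.32 (adjusted p = 0.0082) and at 0.04 after median-ratio scaling (adjusted p = 0.661). Limma called 0 of the 4 in KO-Gly against WT-Gly kidneys, also after both rescalings, and 1 of them, Nqo1, had an unadjusted p under 0.05 (0.32, adjusted p = 0.12).

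Genes of the bone morphogenetic proteins, which matrix Gla protein binds, split as well. Of 9 tested, 4 were called higher and 1 lower in WT-Gly against WT-Ctrl kidneys, where 50.2% and 13.3% of all features were. After median-ratio scaling 1 was called higher and 2 lower, where 29.2% and 28% of all features were. After quantile normalization 2 were called higher and 2 lower, where 28.2% and 31.5% of all features were. Bmp6 rose by 1.14 (adjusted p = 5.13e-10) and the kidney ligand gene Bmp7 fell by 0.21 (adjusted p = 0.020). Under glyoxylate, knockout against wild type, Bmp7 was higher by 0.39 (adjusted p = 0.00069) and Id2, a target gene of the pathway, was at -0.46 (adjusted p = 0.0032). In that comparison 4 of the 9 were called lower and 1 higher, where 21.4% and 8.37% of all features were. After either rescaling 3 were called lower and 1 higher. Of 9 osteogenic genes only Sox9, a transcription factor of cartilage that injured tubules also use, passed the filter on low values. It rose by 1.98 in WT-Gly against WT-Ctrl kidneys (adjusted p = 3.89e-11) and was lower, at -1.19, in KO-Gly against WT-Gly kidneys (adjusted p = 4.66e-06).

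Around Enpp1 and Alpl, 9 of 10 genes of pyrophosphate and phosphate handling were tested. In WT-Gly against WT-Ctrl kidneys 4 were called higher and 3 lower, where 50.2% and 13.3% of all features were, with a median of -0.17 beside 0.26 for all. After median-ratio scaling 4 were called higher and 5 lower, where 29.2% and 28% of all features were. After quantile normalization 3 were called higher and 5 lower, where 28.2% and 31.5% of all features were. Nt5e, the ectonucleotidase that makes adenosine from AMP, rose by 0.89 (adjusted p = 0.00028), Slc20a1, a phosphate carrier, by 0.94 (adjusted p = 6.08e-06) and Entpd1, which hydrolyses extracellular ATP, by 0.69 (adjusted p = 0.00057). Abcc6, a transporter needed for the release of ATP and so for pyrophosphate, fell by 0.70 (adjusted p = 1.60e-05). Between KO-Gly and WT-Gly kidneys Nt5e was at -0.64 (adjusted p = 0.014) and Abcc6 at 0.41 (adjusted p = 0.012). There 2 of the 9 were called higher and 2 lower, where 8.37% and 21.4% of all features were. Median-ratio scaling gave 3 higher and 1 lower, where 13.3% and 15.3% of all features were. Quantile normalization also gave 3 higher and 1 lower, where 15.6% and 17.2% of all features were.

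Of the inter-alpha-inhibitor heavy chain genes, whose proteins join with bikunin, 5 were tested. Itih2 fell by 1.59 in WT-Gly against WT-Ctrl kidneys (adjusted p = 2.86e-08) and Itih5 by 0.81 (adjusted p = 0.0011), while Itih3 was at 0.79 (adjusted p = 0.015) and was not called after median-ratio scaling (0.61, adjusted p = 0.0622). Between KO-Gly and WT-Gly kidneys Itih2 was higher by 0.51 (adjusted p = 0.030) and Itih3 was at -0.75 (adjusted p = 0.040), a call lost after median-ratio scaling (adjusted p = 0.0698) and quantile normalization (adjusted p = 0.0624). Of 17 other genes for proteins that bind crystals or inhibit their growth, 11 were called higher and 1 lower in WT-Gly against WT-Ctrl kidneys, where 50.2% and 13.3% of all features were, with a median of 0.95 beside 0.26 for all. The matrix protein genes Sparc and Bgn rose by 2.62 (adjusted p = 1.08e-12) and 2.53 (adjusted p = 2.17e-11), and Anxa2, an annexin of the cell surface, by 2.19 (adjusted p = 1.07e-12). In KO-Gly against WT-Gly kidneys 4 of the 17 were called lower and none higher, a share near the 21.4% of all features called lower, with Anxa2 at -0.66 (adjusted p = 0.00059) and Ncl, nucleolin, at -0.30 (adjusted p = 0.0028).

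**Figure D4:**
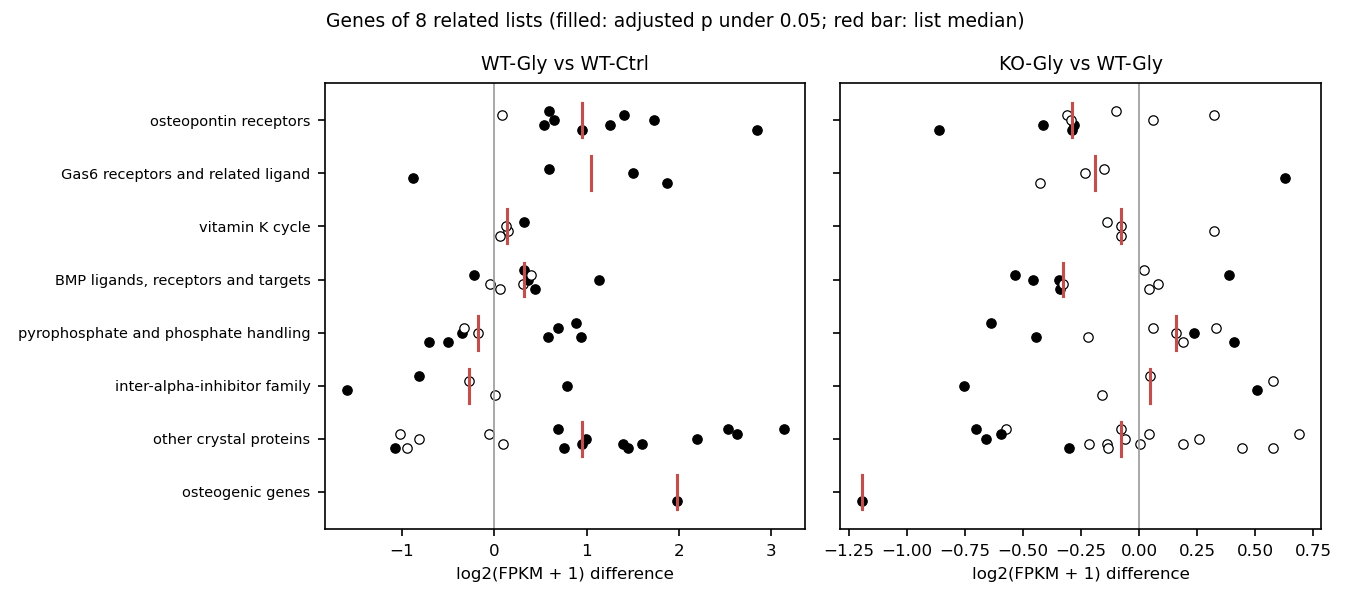
Log2(FPKM + 1) differences of the tested genes of 8 related lists (rows) in WT-Gly against WT-Ctrl kidneys (left) and KO-Gly against WT-Gly kidneys (right). Each point is 1 gene, filled where its adjusted p is under 0.05, and the red bar is the median of the list. The osteopontin receptors have a median of 0.95 on the left and -0.29 on the right.

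Among tested features with Ensembl identifiers, leaving out predicted and clone-named genes, the features closest in profile to each gene over the 24 libraries were found. The measure was the root mean square difference of log2 values centred on the WT-Ctrl mean, as a description with no test. Those closest to Spp1 were Cp (ceruloplasmin) at 0.54, Aldh1a2 (a retinaldehyde dehydrogenase) at 0.58 and Serpina10 at 0.66. Closest to Mgp were Ankrd1 at 0.33, C1qtnf5 at 0.37 and Aoc1 (diamine oxidase) at 0.38. Cp averaged 59.9 FPKM in KO-Gly, 117 in WT-Gly, 16.1 in KO-Ctrl and 7.61 in WT-Ctrl kidneys, which is the order of Spp1. Closest to Gas6 were Txndc5, Tnfsfm13 and Aida, each at 0.18. Closest to Alpl were Xdh (xanthine dehydrogenase) and Tfpi at 0.21 and Tspan7 at 0.23, and closest to Enpp1 were Phf20, Aplp2 and Itprid2, each at 0.11. Closest to Ambp was Vtn (vitronectin, made mainly in liver) at 0.20, followed by Ces1c at 0.37 and Tat (a liver aminotransferase) at 0.42. Exons of C1qtnf5 overlap Mfrp on its strand and those of Tnfsfm13 overlap Tnfsf12 and Tnfsf13, so their levels are uncertain. Exons of Spp1 overlap Gm42793 on the same strand and those of Gas6 overlap Tmem255b on the opposite strand in GENCODE, and reads shared with either cannot be told apart here.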

How the data were processed

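Kidney RNA of 24 libraries was sequenced from TruSeq RNA libraries made from Trizol extracts, per the labels' protocols. The authors deposited FPKM values in 1 table, with 28450 features and a column per library, named by the sample titles that give group and replicate number. Bowtie 0.12.2 and the builds mm8 and mm9 are named, with no role, per the submitters' processing notes. How FPKM was computed, with which annotation and whether strand was used, is not given in the sources used here. Whole reads could not be recovered, because the ratio between a pair of libraries that most features with a mean below 0.05 FPKM had in common, in log2 bins of 0.01, was found in no more than 2.74% of them. The labels name separate samples, so a p-value measures only how these samples spread, which may be technical. No pair of libraries held identical values, with correlations of 0.945 to 0.9961.

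A feature was tested where 6 or more libraries held 1 FPKM or more. The log2(FPKM + 1) values of these 13020 features were fitted with limma 3.58.1 (R 4.3.3) with an intensity trend, a mean per group and no replicate block, and p-values were adjusted over all of them by Benjamini-Hochberg. The fit was checked on simulated data. Alternatives were other pseudocounts, no filter, median-ratio scaling, quantile normalization, array weights, a replicate block, only the groups compared, omission of the 5 KO-Ctrl libraries without Y-linked transcripts, and of each library in turn. Some genes are left out of the lists and not reported here. The 6 genes and all gene lists were chosen with earlier results of these data known. The genes named from each list were up to 4 with the smallest p in WT-Gly against WT-Ctrl and up to 2 in KO-Gly against WT-Gly. Besides those, the 3 most similar profiles of each gene, Nlrp3 and, after seeing the values, the 6 liver markers were named. Upstream windows came from RefSeq (GRCm38.p6), and exon overlaps from GENCODE.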

Additional observations from a re-analysis of the deposited data

Results flagged for a closer look

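Of 24 combinations of gene and group, 3 held a library set apart from the other 5 of its group by more than the 95% critical value of Dixon's test, 0.625 for 6 samples, which chance passes in about 1 of 20 groups. Spp1 was at 461 FPKM in KO-Ctrl replicate 4, the KO-Ctrl library with Y-linked transcripts, and at 1014 to 1118 FPKM in the others. Ambp was at 15.7 FPKM in KO-Gly replicate 1, where Alb was at 223 FPKM. Enpp1 was at 7.84 FPKM in WT-Ctrl replicate 4, against 6.05 to 6.56 FPKM in the other WT-Ctrl libraries.

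The response to glyoxylate differed between genotypes, by limma's test of the interaction, for Spp1 (-1.92, adjusted p = 1.99e-05), Mgp (-2.0, adjusted p = 4.36e-05) and Gas6 (-0.86, adjusted p = 5.58e-05) on the log2 scale. Each is negative, with a smaller difference between Gly and saline in knockout than in wild type. For Gas6 that difference in knockout was -0.02 and was not called. None of the 3 was called without the 5 KO-Ctrl libraries lacking Y-linked transcripts, as given above.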

How the results depend on the processing

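The number of the 6 genes called was 4 in WT-Gly against WT-Ctrl, 4 in KO-Gly against WT-Gly, 2 in KO-Gly against KO-Ctrl, 3 in KO-Ctrl against WT-Ctrl, 3 in the interaction and 4 in KO-Gly against WT-Ctrl. With each library left out in turn these numbers were 4 to 4, 3 to 5, 2 to 3, 3 to 4, 3 to 3 and 4 to 4. In KO-Ctrl against WT-Ctrl, 5 were called with array weights, 5 with only the groups compared and 0 without the 5 KO-Ctrl libraries lacking Y-linked transcripts, and in the interaction 0 without those libraries. With array weights or only the groups compared, the added calls were Mgp (0.56, adjusted p = 0.0053 with array weights) and Enpp1. The share of all features called in those fits is not given here, so the rise cannot be set beside it. Mgp was also called without KO-Gly replicate 4, WT-Gly replicate 1 or WT-Gly replicate 5 (adjusted p = 0.0321, 0.0411 and 0.0376). Alpl in KO-Gly against WT-Gly was not called without a filter (adjusted p = 0.0552), with only the groups compared (0.113) or without the 5 KO-Ctrl libraries (0.0605), and Alpl in KO-Gly against KO-Ctrl was called with array weights (0.35, adjusted p = 0.00831). Enpp1 was called lower in KO-Gly against KO-Ctrl after quantile normalization (-0.24, adjusted p = 0.0446) and higher in KO-Gly against WT-Ctrl with array weights (0.21, adjusted p = 0.0142). In KO-Gly against WT-Gly it had adjusted p-values of 0.0287 to 0.171 with each library left out. The cause of these changes was not tested. Differences that changed sign were uncalled under both settings. Ambp in KO-Gly against WT-Ctrl was at -0.13 after median-ratio scaling, -0.27 after quantile normalization and -0.035 with array weights, and Enpp1 at -0.032 and -0.042 after the same 2 scalings. With array weights Enpp1 was at 0.046 in WT-Gly against WT-Ctrl and -0.20 in the interaction. Without the 5 KO-Ctrl libraries, Ambp was at -0.21, Gas6 at 0.24 and Enpp1 at 0.17 in KO-Gly against KO-Ctrl, and Ambp at 0.23 in KO-Ctrl against WT-Ctrl. With each library left out, Gas6 in KO-Gly against KO-Ctrl ranged from -0.077 to 0.053, Ambp there from -0.19 to 0.48, Ambp in KO-Gly against WT-Ctrl from -0.46 to 0.33, Ambp in KO-Ctrl against WT-Ctrl from -0.46 to 0.047, Enpp1 in the interaction from -0.095 to 0.081 and Enpp1 in WT-Gly against WT-Ctrl from -0.18 to 8.1e-05. Pseudocounts changed no call of a member. The replicate numbers do not pair the samples, as same-numbered samples correlated by -0.367 to 0.266 and at most 1 of 6 samples was closest to its own number. The fit with the number as a block left the 4, 4, 2, 3, 3 and 4 calls of members as they were. Scaling moved the split of all called features. In WT-Gly against WT-Ctrl it was 6537 higher and 1728 lower as deposited. Median-ratio scaling made it 3802 and 3652, quantile normalization 3674 and 4103. In KO-Gly against WT-Gly the split was 1090 and 2792, then 1738 and 1991, and 2032 and 2236. The depth is unknown and sets no stated limit on these values.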

Other observations

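Ratios of 2 genes within a library, which do not depend on the scaling of that library, were compared after seeing the values, by 10 exact permutation tests over libraries, two-sided, with Benjamini-Hochberg adjustment over the 10. The FPKM of Mgp over that of Spp1 averaged 0.0350 (0.0192 to 0.0519) in KO-Gly and 0.0539 (0.0375 to 0.0670) in WT-Gly kidneys (n = 6 each, exact p = 0.015, adjusted p = 0.03). It was lower in WT-Gly than in WT-Ctrl kidneys (exact p = 0.013, adjusted p = 0.03), which averaged 0.0736 (0.0597 to 0.0902), so Mgp rose by less than Spp1 in wild-type mice. In KO-Ctrl kidneys it averaged 0.0525 (0.0376 to 0.0961), below WT-Ctrl kidneys (exact p = 0.039, adjusted p = 0.049) and not told apart from KO-Gly kidneys (exact p = 0.058, adjusted p = 0.065). The highest KO-Ctrl value, 0.0961, was in replicate 4, the KO-Ctrl library with Y-linked transcripts. That library lay above every WT-Ctrl and every KO-Gly library, so neither statement holds for it.

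The FPKM of Alpl over that of Enpp1 averaged 25.5 (18.4 to 30.5) in KO-Gly, 25.2 (17.8 to 38.3) in WT-Gly, 19.9 (16.9 to 22.9) in KO-Ctrl and 16.6 (14.2 to 20.4) in WT-Ctrl kidneys. It was higher in WT-Gly than in WT-Ctrl kidneys (n = 6 each, exact p = 0.0043, adjusted p = 0.014) and in KO-Gly than in KO-Ctrl kidneys (exact p = 0.028, adjusted p = 0.047), and also, without glyoxylate, in KO-Ctrl than in WT-Ctrl kidneys (exact p = 0.035, adjusted p = 0.049). KO-Ctrl replicate 4 alone was at 21.6. KO-Gly kidneys were above WT-Ctrl kidneys for this ratio (exact p = 0.0043, adjusted p = 0.014) and below them for Mgp over Spp1 (exact p = 0.0022, the smallest these tests can give, adjusted p = 0.014). KO-Gly and WT-Gly kidneys were not told apart by this ratio (exact p = 0.84, adjusted p = 0.84), with a log2 difference of 0.04. The ratio puts the transcript of the enzyme that hydrolyses pyrophosphate over that of the enzyme that makes it, per length, and says nothing of enzyme activity.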
